A study of Mus musculus with 18 samples.

Results

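The regions described here are the CpG-sparse stretches of the mouse genome at which methylation was lower in leukemic spleen cells than in preleukemic marrow cells. They were chosen by their measured values from the authors' table of differentially methylated regions between the KO and the AML library: chromosomes 1 to 19, a mean methylation at least 0.2 lower (as a fraction) in AML than in KO, and fewer than 0.05 counted CpG sites per base. The rule gave 53740 regions of the 96225 in that table on those chromosomes, or 55.8% of them. All regions of the table were called as different by the authors, and 73.5% of the 96225 lost at least 0.2, so the members make up 75.9% of the 70764 losing regions. The remaining regions past the same size of change served as comparison: 17024 denser regions that lost, 7816 sparse regions that gained and 11702 denser regions that gained methylation.

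The mice were of the C57BL/6 strain. WT marrow came from C57BL/6 mice. The group called NHD13 carried the NUP98-HOXD13 fusion transgene, which causes a myelodysplastic disease that can become acute leukemia, together with floxed but undeleted Setd2 alleles (NHD13/Setd2 flox/flox). The KO group carried the transgene and a Setd2 deletion induced through Mx1-Cre, whose promoter responds to interferon and is active in blood and in several other tissues, and the AML group had the same 2 changes at the leukemia stage. WT, NHD13 and KO cells were hematopoietic stem and progenitor cells (HSPCs) sorted from bone marrow, whereas AML cells were sorted from spleen as C-Kit+ cells. Disease stage, tissue and sort therefore cannot be told apart in any comparison of AML with KO. Each group had 1 whole-genome bisulfite library and 3 RNA-seq libraries. H3K36me3 ChIP-seq was made from C-Kit+ spleen cells of 2 leukemias, 1 library labelled NHD13 AML and 1 labelled NHD13/Setd2 KO AML (KO AML below). Ages, and whether replicates were taken from different mice, were not given in the sources used here.

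In mammals, a methyl group on the cytosine of a CpG is copied to the new strand after replication by DNMT1, and is set anew by DNMT3A and DNMT3B. CpGs are rare over most of the genome, and those that stand alone in gene-poor, late-replicating DNA are the ones known to lose methylation most readily as cells divide and in many cancers. H3K36me3, the histone mark that SETD2 deposits over transcribed gene bodies, is bound by the DNMT3 enzymes, which links it to gene body methylation.

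Sequences show how sparse these regions are. Of the members, 230 met a window from 250 bases before to 50 after an annotated gene start. The stretches below are the bases before the start that the member covers, on the gene's strand, from RefSeq sequence of GRCm38.p6, the assembly also called mm10, with the CpGs in capitals. Tifab and Gpr22 have the members with the largest summed scores among the 230. E330020D12Rik, whose member scores below those of Gm10561, Selp, Gm40645 and Gm46224, and S100a8, Camp and Igsf6, genes of myeloid cells, were chosen after their values were seen.
Tifab, chr13:56178886-56179003, minus strand: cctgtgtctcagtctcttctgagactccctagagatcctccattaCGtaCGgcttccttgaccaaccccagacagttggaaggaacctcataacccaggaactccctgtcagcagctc
Gpr22, chr12:31713884-31714133, minus strand: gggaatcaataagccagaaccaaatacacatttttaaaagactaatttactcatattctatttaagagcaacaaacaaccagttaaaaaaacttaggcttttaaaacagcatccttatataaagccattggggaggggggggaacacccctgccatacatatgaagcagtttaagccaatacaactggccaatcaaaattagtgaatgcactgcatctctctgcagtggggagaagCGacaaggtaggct
E330020D12Rik, chr1:153414234-153414435, minus strand: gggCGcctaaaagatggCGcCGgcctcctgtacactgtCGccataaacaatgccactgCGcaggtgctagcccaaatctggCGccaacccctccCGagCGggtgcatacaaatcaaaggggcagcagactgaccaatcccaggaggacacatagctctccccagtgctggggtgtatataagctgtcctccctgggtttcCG
S100a8, chr3:90668993-90669070, plus strand: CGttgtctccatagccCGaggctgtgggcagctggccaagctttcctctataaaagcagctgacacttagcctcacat
Camp, chr9:109849457-109849706, minus strand: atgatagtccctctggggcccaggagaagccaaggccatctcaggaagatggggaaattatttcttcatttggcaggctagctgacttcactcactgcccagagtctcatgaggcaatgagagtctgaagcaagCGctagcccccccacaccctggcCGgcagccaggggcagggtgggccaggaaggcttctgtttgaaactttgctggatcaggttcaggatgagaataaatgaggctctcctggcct
Igsf6, chr7:121074531-121074780, minus strand: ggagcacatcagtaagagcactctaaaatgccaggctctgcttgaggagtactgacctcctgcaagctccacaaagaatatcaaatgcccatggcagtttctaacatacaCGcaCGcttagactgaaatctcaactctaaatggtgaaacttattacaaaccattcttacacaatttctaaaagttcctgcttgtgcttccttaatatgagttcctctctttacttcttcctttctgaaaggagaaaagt
The 250 bases before Gpr22 hold 1 CpG, the 250 before Camp and before Igsf6 hold 2 each, and the 202 covered bases before E330020D12Rik hold 9, so this last one lies at the dense end of the set. Over whole windows, those met by a member held a median of 3 CpGs against 7 in all 31396 windows. The rule chose members for low CpG density, which favours such windows, so this difference is given as a description.

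The CpGs of members had an A or a T beside them more often than those of the 3 comparison classes. Among the 561 CpGs in promoter-window bases covered by members, 28.5% had an A or a T on both sides (95% Wilson interval 24.9% to 32.4%, counting error only). The share was 9.66% in the denser losing regions, 16.9% in the sparse gaining regions and 7.04% in the denser gaining regions. This measure covers only the few members at gene starts, and chromosome 18 was not used here for promoter windows or for distances to gene starts, which leaves 51840 members. For an A or a T on both sides, the interval of the sparse gaining regions was 14.0% to 20.3%. CpGs with an A or a T on neither side made up 25.85% in members and 55.7% in the denser losing regions. They made up 35.5% in the sparse gaining and 58.25% in the denser gaining regions. The 4 classes differ in CpG density, on which the rule selected, and so do the 2 sparse ones, with medians of 2.56 sites per 100 bases in members and 3.64 in the sparse gaining regions. The part of density in these shares was not tested.

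Short motifs of blood transcription factors were counted on both strands of the 248 windows met. TGTGGT, the core bound by RUNX factors, was in 28.2% of them against 16.7% of all windows. TTGCNNAA, the core of C/EBP sites, was in 20.6% against 10.9%. Among the 14919 windows with at most 6 CpGs, called low in CpG here and not matched further to the windows met, the shares were 21.9% and 14.5%. The GATA motif AGATAA was in 16.5% of the windows met and in 17.1% of those low in CpG, and the ETS motif AGGAAGT in 12.9% and 11.5%. TGANTCA, the AP-1 motif, was in 12.9% against 11.3% of the low-CpG windows, and the E-box CACGTG in 4.44% against 3.69%. No one of the 6 motifs contains another, and a match describes letters, not binding.

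The values that chose the members were as follows, as a description. Median methylation was 83.5% in KO and 47.8% in AML, and the median loss was 33.6 percentage points, with 5% of members above 51.2. The smallest loss inside the limit was 20.003 points and the largest outside 19.99. The density just inside was 4.99 sites per 100 bases and just outside 5.0. A member was typically short, with a median of 243 bases, a middle 50% from 169 to 416 and a longest of 8502. It held a median of 6 counted sites, and 34.1% held the minimum of 4. Counts were even in 75.9% of members. In 19 of the 24 members that lie wholly inside a promoter window, the count equalled the cytosines of CpGs on both strands. In 0 it equalled the CpGs. The count was below those cytosines in 0 of the 24, so in the rest it was above what the sequence holds. Among all regions inside a window, 129 of 179 matched. Where the count matched, 4 counted sites are as a rule 2 CpGs and the density of CpGs is about 50% of the nominal one. Each side of the table is 1 library with no coverage given, so no member has an error of its own and the depth behind its levels is unknown.

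The members lay away from genes. Of the 53740, 39.2% met the span of an annotated gene (Wilson interval 38.8% to 39.6%), while gene spans cover 48.3% of chromosomes 1 to 19. The share was 50.2% for the denser losing regions, 62.6% for the sparse gaining and 72.0% for the denser gaining regions. The median distance to the nearest gene start was 85.9 kb for members, against 39.5 kb, 23.2 kb and 11.4 kb in the same order. Only 6.80% of members lay within 5 kb of a start, against 13.2%, 20.5% and 37.6%. These intervals cover counting of regions, not differences between animals, since all regions come from the same pair of libraries.

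**Figure D1:**
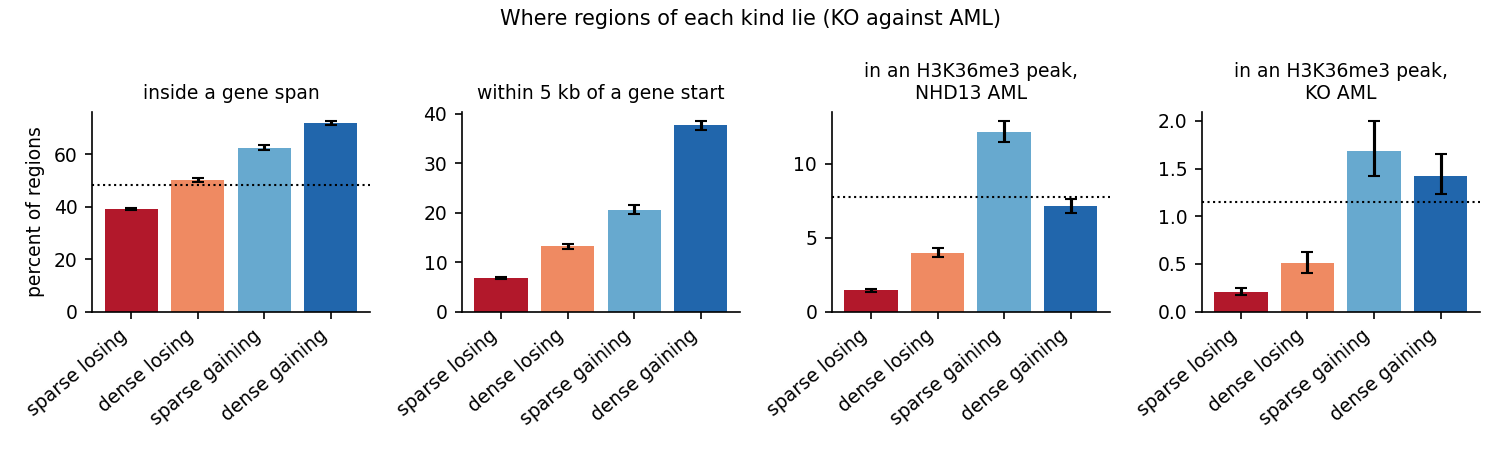
Percent of regions of each kind (y axis) that lie in a gene span, within 5 kb of a gene start, or in an H3K36me3 peak of either leukemia. Bars are shares of all regions of the kind, error bars 95% Wilson intervals over regions, and dotted lines the share of chromosomes 1 to 19 that the feature covers. Sparse losing regions, the members, have the lowest bar in all 4 panels, 39.2% in gene spans and 1.45% in NHD13 AML peaks.

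H3K36me3 covered few of them. In the NHD13 AML library 777 members, or 1.45%, met a peak (interval 1.35% to 1.55%), although the peaks cover 7.73% of these chromosomes. Sparse gaining regions met one in 12.1% of cases, denser losing in 3.97% and denser gaining in 7.14%. In the KO AML library, whose 16776 peaks cover 1.15% of the chromosomes, the share was 0.208% (0.173% to 0.251%). There were 94 members in peaks of both leukemias, 683 in peaks of the NHD13 AML library alone and 18 in peaks of the KO AML library alone. Peaks were called per library with no replicate, and the NHD13 AML library has no bisulfite counterpart.

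Gene content of the surroundings went with the number of members. In 1 Mb windows without a protein-coding gene the median was 39 members (middle 50% 10.3 to 52), in windows with 1 to 4 such genes 26, with 5 to 9 genes 15, and with 10 or more genes 12. Across the 2451 windows, the rank correlation of members with protein-coding genes was -0.38, as a description over windows that share both libraries. It was 0.12 for the denser losing, 0.37 for the sparse gaining and 0.55 for the denser gaining regions. Windows with at most 4 protein-coding genes held 19.7% (none) and 41.6% (1 to 4) of the members. The size of the loss differed little with gene content: a median of 35.4 points in windows without a gene and 32.0 in those with 20 or more. Neighbouring members lay a median of 18.5 kb apart, and 18.2% of the gaps were at most 5 kb.

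**Figure D2:**
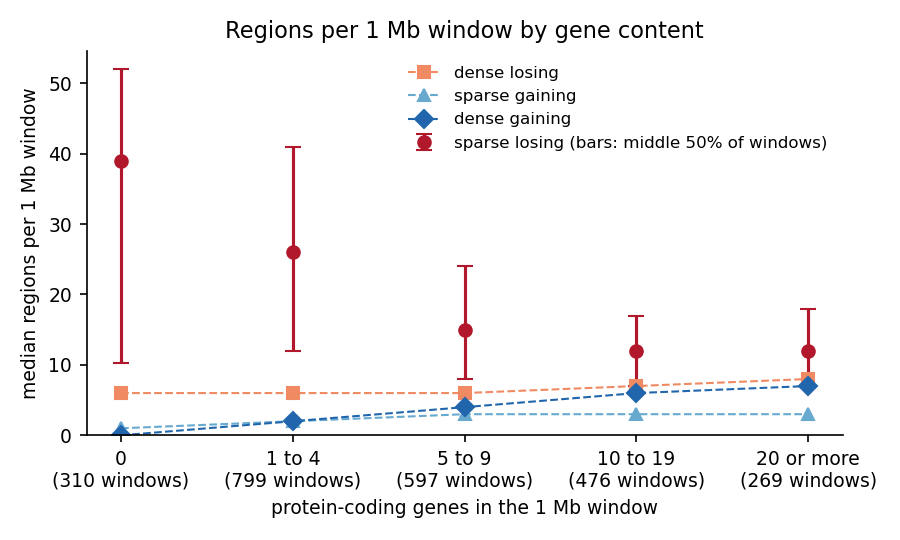
Median number of regions per 1 Mb window (y axis) against the protein-coding genes in the window (x axis), for the 4 kinds of region, with bars for the middle 50% of windows of the sparse losing regions. The sparse losing regions fall from 39 in windows without a gene to 12 in windows with 20 or more, while the median of denser gaining regions goes from 0 to 7.

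The fullest windows held few protein-coding genes, from 1 to 3 in the first 5, but differed in how much of them gene spans covered. Chromosome 4 from 36000001 to 37000000, of which gene spans with Lingo2 cover 98.7%, held 115 members, 17 denser losing, 0 sparse gaining and 1 denser gaining regions. Next came chromosome 4 from 72000001 to 73000000 with Tle1 and Aldoart1, 9.65% in gene spans and 109 members. The 3 windows with 105 members hold Pcdh17, a protocadherin, on chromosome 14 (23.5% in gene spans), Tram1l1 on chromosome 3 (6.63%) and Adamtsl1 with Cntln and Sh3gl2 on chromosome 4 (80.2%). By chromosome, density ran from 15.8 members per Mb on chromosome 17 to 27.7 on chromosome 3. Chromosomes 3 and 16, with 6.15 and 6.92 protein-coding genes per Mb, were at the top (27.7 and 27.5 members per Mb), and chromosomes 17 and 19, with 11.2 and 11.5 genes per Mb, at the bottom (15.8 and 16.1). Chromosome 11 stood off this order, with 13.2 genes and 24.5 members per Mb.

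The 10 genes with most members had spans of 914.5 to 3171 kb. Lsamp, a neural adhesion protein, held 139 in a span of 2197 kb. Lingo2 held 129, Nrxn3, a synaptic neurexin, 126, Ptprd, a receptor phosphatase, 122, Adamtsl1 113, Lrp1b 105, Macrod2 104, Dlg2, a synaptic scaffold protein, 104 and Cntnap2 97. The immunoglobulin kappa locus Igk, which is listed as 1 gene of 3171 kb, held 126. Of the 10, Macrod2 passed the RNA filter, 7 were counted but had too few reads (9 to 51 reads over all 12 libraries), and Igk and Dlg2 could not be matched to 1 row of the count table. A member met 7392 genes in all, 4366 of them with 1 member and 38 with 50 or more.

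Relative to length, the fullest genes with at least 5 members were Ramp3, a co-receptor for calcitonin-family peptides, with 26.4 members per 100 kb, and the noncoding gene Gm42256 with 24.2. The rest of the 10 were 1700006A11Rik (24.0), Phf11 (23.3), Gm32815 (22.4), Gm41472 (22.2), Gm41162 (19.4), Gm19522 (18.1), D830005E20Rik (17.6) and Gm12371 (17.1). Of the 10, 4 had too few reads to be tested and 6 were not found once in the count table.

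Members with more sites were longer and met genes and peaks more often. Median length was 170 bases with 4 sites, 252 with 5 to 9, 403 with 10 to 19 and 664 with 20 or more. A longer region meets any feature more easily, since 1 shared base counted as meeting. The part of length in the shares below was not tested. The 18315 members with 4 sites met a gene span in 34.3% of cases, and the 1299 members with 20 or more sites in 67.3%. Within 5 kb of a gene start the shares were 5.03% and 18.8%, and in NHD13 AML H3K36me3 peaks 0.393% and 9.85%. Median methylation in KO was 83.6% in the first group and 73.7% in the second. Between these extremes, members with 5 to 9 sites met a gene span in 37.9% and those with 10 to 19 in 49.7%.

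**Figure D3:**
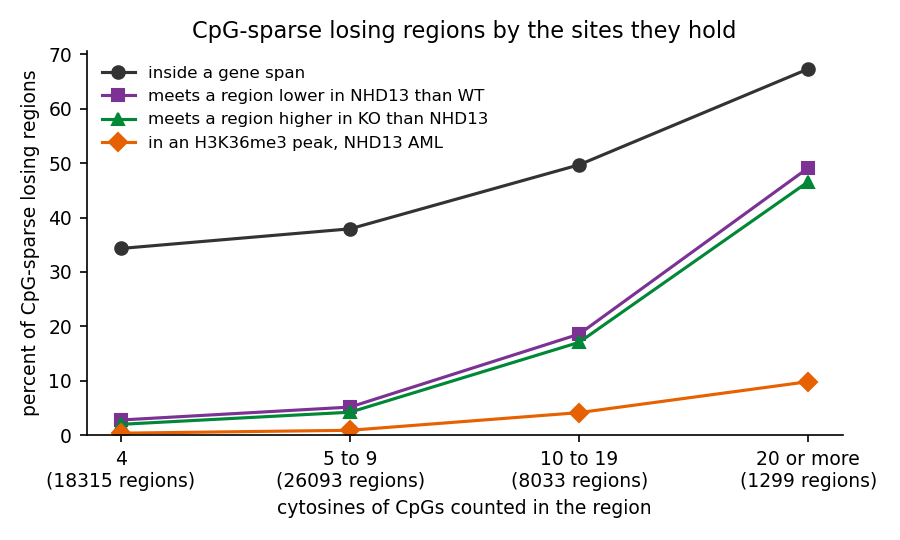
Percent of members (y axis) in a gene span, in an H3K36me3 peak of the NHD13 AML library, or meeting a region of the 2 earlier comparisons, by the number of cytosines counted in the member (x axis, with the number of members). All 4 lines rise with the number of sites, the share meeting a region lower in NHD13 than in WT from 2.82% to 49.1%. Members with more sites are also longer.

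Most members had not been called in the 2 earlier comparisons of marrow cells. A region lower in NHD13 than in WT, a comparison that shares no library with the rule, was met by 4001 members (7.45%), and one higher in NHD13 by 151 (0.281%). By bases, regions lower in NHD13 covered 5.73% of the members and 0.536% of chromosomes 1 to 19. A region higher in KO than in NHD13 was met by 3455 members (6.43%) and one lower in KO by 80 (0.149%). That comparison shares the KO library with the rule, so a KO level that happened to be high raises both, and the overlap is given as a description. The denser losing regions met a region lower in NHD13 more often, in 15.1% of cases, and so did the sparse gaining regions, in 11.5%. The denser gaining regions did so in 6.61%. By bases the shares were 18.7%, 8.82% and 1.95% in the same order, so this overlap was not particular to regions that lost methylation in AML. The share of members rose with sites: 2.82% with 4 sites, 5.19% with 5 to 9, 18.6% with 10 to 19 and 49.1% with 20 or more. Length rose with sites too, and its part was not tested.

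For the 2199 members that met both a loss in NHD13 and a gain in KO, the level went down, up and down again. Medians were 83.3% in WT, 47.8% in NHD13, 79.7% in KO and 47.7% in AML. These members were chosen on all 3 steps, so the zigzag itself is fixed by the choice and is given as a description. The levels in WT and NHD13 are those of the overlapping region of the earlier table, whose ends can differ from the member's.

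The 4 such members with the largest summed scores lie in Tifab, Adk, Selp and Mpo. The next 4 lie in Afmid, in Gm33440, in Adk again and in no gene. In Mpo, the myeloperoxidase of neutrophil granules, the member at chr11:87797230-87798760 with 52 sites stood at 87.5% in WT, 43.1% in NHD13, 59.9% in KO and 14.0% in AML. In Selp, the adhesion receptor P-selectin, the member at chr1:164115278-164117470, which begins 14 bases after the gene start, stood at 89.8%, 58.8%, 85.2% and 25.8%. In Adk, adenosine kinase, the member at chr14:21145009-21148474 stood at 92.9%, 25.6%, 66.5% and 11.9%. At Tifab, a gene of the TIFA family that dampens innate immune signalling, the member at chr13:56175402-56179003 covers the gene start and stood at 80.3%, 49.4%, 58.0% and 8.73%. The table of KO against NHD13, where the overlapping region has other ends, gives the same NHD13 library 29.1% at Tifab, 38.3% at Mpo, 58.4% at Selp and 19.8% at Adk, so the NHD13 level at Tifab depends on the ends used. AML had the lowest of the 4 levels at all 4 genes with either value. These 4 members were picked by the score of AML against KO, which favours low AML levels. Over all 2199, the medians of NHD13 and AML were close, at 47.8% and 47.7%.

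**Figure D4:**
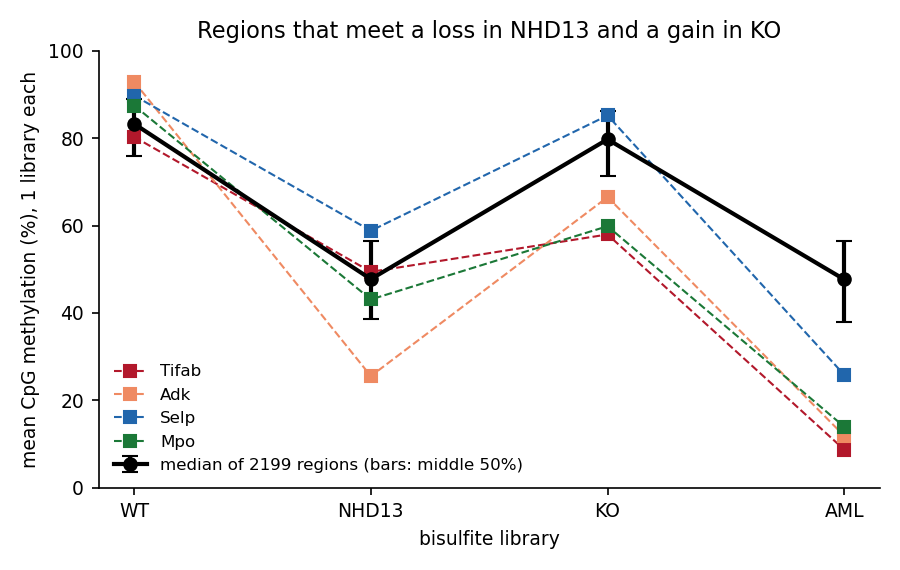
Mean CpG methylation in percent (y axis) in the 4 bisulfite libraries (x axis, 1 library each). The WT and NHD13 levels are from the table of NHD13 against WT. Black points are medians of the 2199 members that meet both a loss in NHD13 and a gain in KO, with bars for the middle 50%, and coloured squares are single members in Tifab, Adk, Selp and Mpo. The 4 single members, picked by the score of AML against KO, are below the median in AML, between 8.73% and 25.8%.

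RNA in the same groups is a measure the rule did not use. Library totals ran from 18673704 to 28127686 counts, levels are given as CPM, counts scaled to 1000000 reads per library, and the test is edgeR's quasi-likelihood test with Benjamini-Hochberg adjustment over 16233 genes at 0.05. It called 42.8% of all genes higher in AML than in KO and 39.5% lower, so a call by itself says little about a gene. Replicates were not equally close in all groups. Chi-square per degree of freedom between 2 libraries, which rises with scatter beyond counting error, was 1.97 to 2.63 in AML and 4.65 to 9.14 in KO. It was 8.38 to 24.9 in NHD13 and 4.01 to 30.4 in WT. The test used 1 estimate of spread over the 4 groups. The p-values here reflect no more than the scatter among replicates, which may be technical. The count over the whole Setd2 gene did not follow the KO label: 29.2 to 34.9 CPM in KO, 31.5 to 34.6 in NHD13, 37.2 to 45.2 in WT and 179 to 187 in AML. A whole-gene count can miss the loss of single exons, and every direction given for KO rests on the labels. Fewer cells of a type and less RNA per cell cannot be told apart in these bulk libraries.

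RNA of marker genes of blood and other cells differed between KO and AML, and within several lists the markers did not move together. The 5 neutrophil markers summed to 43700 to 47120 CPM in KO and 15570 to 16070 in AML. That sum is carried by Mpo and by Elane, the neutrophil elastase, which fell (from a mean of 25056 to 6327 and of 19332 to 2478 CPM), while Ngp (464 to 3574), Camp (352 to 1231) and Ltf, lactoferrin (84.7 to 2256), genes of later granules, rose. The 7 markers of C-Kit+ and progenitor cells summed to 321 to 335 in KO and 546 to 560 in AML, with 4 higher, Kit among them, and 3 lower. The 4 megakaryocyte markers summed to 393 to 397 and 26.3 to 28.6, with 3 lower and 0 higher.

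The 5 B cell markers summed to 59.99 to 65.45 CPM in KO and 21.3 to 22.5 in AML. Cd79b, a part of the B cell receptor, fell from 61.1 to 15.6, while others rose, Cd79a from 0.759 to 3.68 and Pax5 from 0.0127 to 2.06, and Ms4a1 did not pass. The 5 red cell markers summed to 170 to 177 and 54.6 to 59.6, with 2 higher and 2 lower. Stroma and endothelium markers summed to 55.3 to 61.0 in KO and 161 to 167 in AML. All 3 of the 5 that were tested rose: Pecam1 from 37.1 to 102, Pdgfrb from 20.1 to 60.2 and Col1a1 from 0.143 to 1.22. The AML sum was above those of red cell, B cell and megakaryocyte markers there. Pecam1 and Pdgfrb carry it, and sums over different lists are not shares of cells. Macrophage markers summed to 16.4 to 19.3 and 31.0 to 33.8 (3 of 5 higher, 0 lower), and T and NK cell markers to 3.47 to 4.11 and 4.94 to 5.95 (1 of 3 tested higher). The part of these shifts in the results below was not tested.

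Genes holding the top-scoring members included several with large RNA differences. The member with the largest summed score lies in 2410003L11Rik at chr11:97598093-97599733, with 76 sites at 92.0% in KO and 19.3% in AML. RNA of 2410003L11Rik was at 0.0527, 0 and 0 CPM in the KO libraries and at 32.5, 28.3 and 28.7 in the AML libraries, far apart. The next lies in Clstn3, an adhesion protein of synapses and fat cells, at chr6:124448575-124450957 (77.6% to 19.03%). Clstn3 RNA was at 19.4, 23.7 and 19.2 CPM in KO and at 98.6, 101 and 93.4 in AML (log2 fold change 2.23 ± 0.15 SE, adjusted p = 2.26e-09). In Coro2a, an actin-binding coronin, at chr4:46579461-46582732, the member with most sites, 146, went from 68.5% to 26.8%. Coro2a RNA rose by 1.95 on the log2 scale (SE 0.12, adjusted p = 1.87e-11).

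The others of the 10 top-scoring members lay in genes with smaller RNA differences, apart from Tifab and Gpr22, given below. Maml3, a Notch coactivator, rose by 1.26 ± 0.12 and Map4k5, a kinase, by 0.88 ± 0.10. Tmcc3, whose member fell from 84.9% to 11.99%, the largest loss among members with 10 or more sites, had 0.759 to 1.05 CPM in KO and 0.809 to 1.03 in AML, and the libraries overlapped (adjusted p = 0.975). Akap7, which anchors protein kinase A, had 6.01 to 7.55 and 6.16 to 7.58 CPM (adjusted p = 0.968). The tenth region, on chromosome 12 from 70477018 to 70478331, lay in no gene. Among the longest members, Lrba (6545 bases, 95.4% to 52.6%), a vesicle trafficking gene, rose by 4.25 ± 0.14, and Zcchc7 (6696 bases, 85.6% to 31.4%), a gene of nuclear RNA surveillance, by 1.01 ± 0.07.

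At gene starts, members and RNA could be set side by side. The 230 members at promoter windows belonged to 232 genes, of which 156 were found once in the count table and 59 passed the filter on low counts. Of those 59, 41 were higher and 9 lower in AML, and 9 did not pass, against 42.8% and 39.5% of all genes tested. A gene low in KO passes the filter only through a group where it is high, so the 41 are a description of the 59 and not of the 232, and 97 of the 156 had too few reads to be tested. The 230 members met a region lower in NHD13 than in WT in 25.7% of cases and one higher in KO than in NHD13 in 22.2%.

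Tifab, Gpr22 and Selp had their highest RNA in AML. Tifab was at 80.3, 101 and 90.4 CPM in KO and at 287, 293 and 273 in AML, with no overlap (log2 fold change 1.65 ± 0.07 SE, adjusted p = 1.63e-13). Gpr22, an orphan receptor gene inside Cog5 whose member at chr12:31707389-31715890 is the longest of all, went from 0.474, 0.266 and 0.522 CPM to 10.6, 13.7 and 11.3 (4.84 ± 0.28, adjusted p = 8.78e-12). Its member stood at 89.0% in KO and 46.4% in AML and met no region of the earlier comparisons. Selp was at 3.06, 2.66 and 2.37 CPM in KO and at 53.4, 48.9 and 47.8 in AML (4.22 ± 0.13, adjusted p = 8.40e-16), also above the 8.68 to 11.5 of WT. Of further genes, Nin, a centrosome protein, rose by 3.37 ± 0.07 and Rtn4, a protein that shapes the endoplasmic reticulum, by 3.22 ± 0.09.

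S100a8 and Camp, genes of neutrophils, differed in both measures across the 4 groups. At S100a8, a calprotectin subunit, the member at chr3:90668993-90669785 stood at 74.9% in WT, 33.8% in NHD13, 62.4% in KO and 18.2% in AML. S100a8 RNA averaged 382 CPM in WT, 21170 in NHD13, 2072 in KO and 2707 in AML. The AML library was thus the lowest in methylation and not the highest in RNA, and the 3 AML libraries (2566 to 2819 CPM) stood above the 3 of KO (1890 to 2340) by a log2 fold change of 0.39 ± 0.16 (adjusted p = 0.0437). That call was lost without any 1 of the AML libraries (adjusted p 0.0532 to 0.101) without KO replicate 2 or 3 (0.125 and 0.101), and without the filter on low counts (0.117). At Camp, which encodes the antimicrobial cathelicidin, the member at chr9:109849070-109849929 stood at 84.1%, 54.7%, 80.5% and 53.0% in the same order. Camp RNA averaged 58.3, 9854, 352 and 1231 CPM, and it rose from KO to AML by 1.81 ± 0.08 (adjusted p = 1.79e-13).

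Igsf6 fell and Zbtb38 did not pass the test. The member at Igsf6, an immunoglobulin-family gene of myeloid cells, at chr7:121073398-121075492, went from 63.9% to 32.6%, and Igsf6 RNA fell from 252, 263 and 252 CPM to 213, 213 and 210 (log2 fold change -0.27 ± 0.07, adjusted p = 0.00178). Zbtb38, a protein that binds methylated DNA, had 22.6 to 25.3 CPM in KO and 26.7 to 29.6 in AML (0.22 ± 0.12, adjusted p = 0.0937), though it passed without the filter on low counts (adjusted p = 0.0329), with its member at 89.0% and 55.03%. Ifitm1, an interferon-induced membrane protein, was at 125 to 131 CPM in KO and 98.2 to 104 in AML, and its member at 49.1% and 21.2%.

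**Figure D5:**
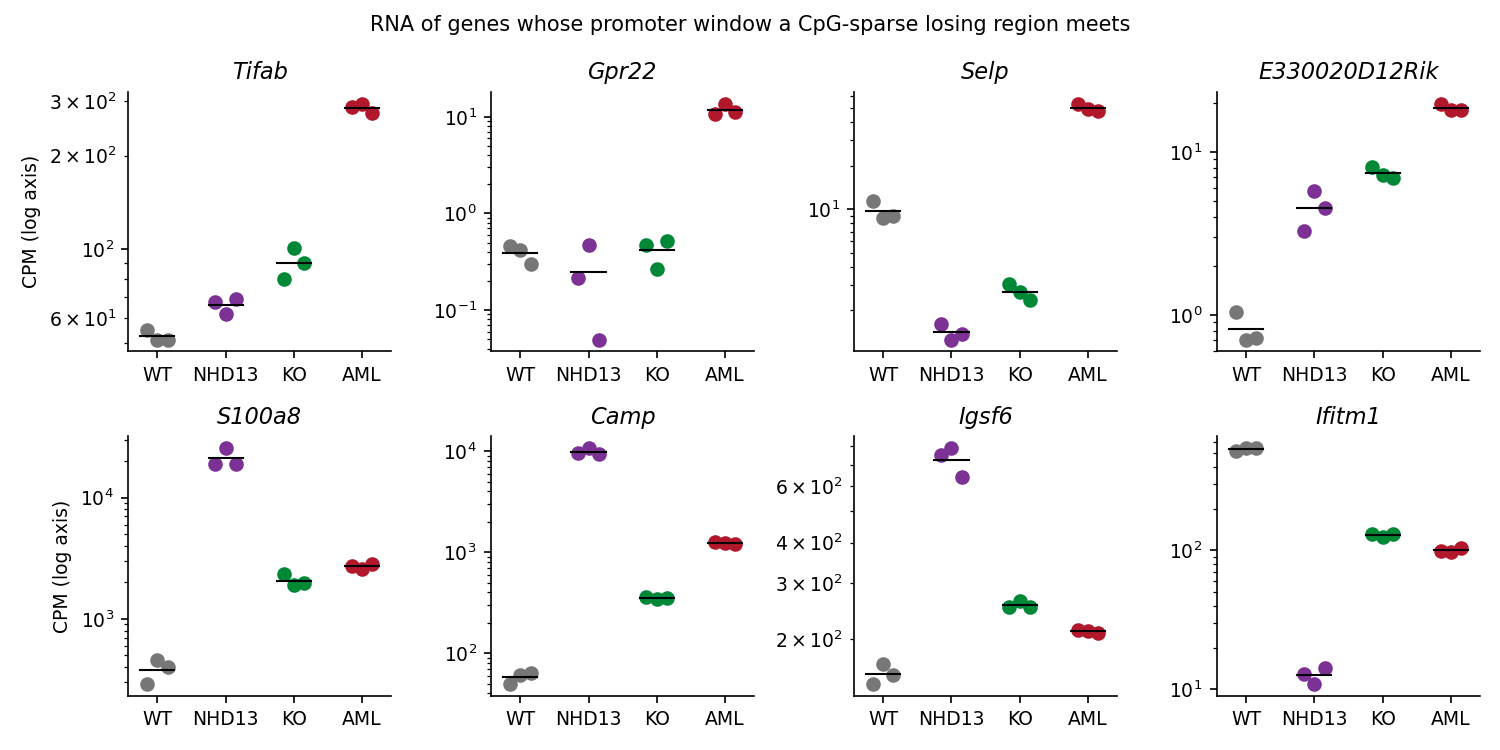
RNA in CPM (y axis, log scale, a separate range for each gene) in each of the 12 libraries, 3 per group (x axis), for 8 genes whose promoter window a member meets, with a line at each group's mean. Tifab, Gpr22, Selp and E330020D12Rik are highest in AML, while S100a8, Camp and Igsf6 are highest in NHD13 and Ifitm1 in WT.

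Over whole gene bodies, RNA calls differed with gene length as well as with members. Among protein-coding genes tested, 55.2% of the 1903 with 1 or 2 members were higher in AML and 27.6% lower, against 44.5% and 40.5% of the 9631 without a member. A gene low in KO passes the filter only through a group where it is high. The share passing differed between the sets, as given below, so the calls describe the tested genes only. Among the 25% of genes with the longest spans (over 46.5 kb), however, 57.1% of those with a member and 62.8% of those without were higher, and 25.3% and 24.4% lower. The other 25% groups, shortest first, had 40.4%, 46.3% and 49.7% higher with a member, against 30.3%, 38.1% and 48.05% without. Lower were 40.4%, 38.8% and 32.25% with a member, against 54.8%, 45.6% and 37.1% without. The shortest group had only 52 tested genes with a member. The share of protein-coding genes with enough reads to be tested differed with the number of members: 63.9% of protein-coding genes without a member passed the RNA filter, 59.8% of those with 1 or 2, 44.2% of those with 3 to 9 and 20.1% of the 339 with 10 or more. A gene that did not pass the filter was not without reads as a rule. Counted over all genes of each set, passing or not, 33 of the 339 and 2011 of the 15064 without a member had no read in any library. A gene without a read cannot pass, so these shares are higher among the genes that did not pass. Of the 68 tested among the 339, 18 (26.5%) were higher and 35 (51.5%) lower, against 46.4% and 38.2% of all protein-coding genes tested. Within that longest 25%, 56.5% of genes with a member and 84.0% of those without passed. In the other 25% groups, shortest first, 26.5%, 49.5% and 53.6% passed with a member, against 38.3%, 68.6% and 78.3% without. Over all genes with at least 1 member, 1300 of the 2468 tested (52.7%) were higher and 726 (29.4%) lower, against 42.8% and 39.5% of all genes tested.

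Macrod2 and Slc25a21 stood out among the genes that fell. Macrod2, an ADP-ribose hydrolase gene with 104 members, was at 13.6 to 15.7 CPM in WT, 7.18 to 8.39 in NHD13 and 1.26, 1.56 and 0.759 in KO, and had no read in any AML library, at least 28.8-fold lower than KO taking 3 counts in the 3 libraries together as the floor. Slc25a21, a mitochondrial carrier gene with 22 members, was at 26.6, 29.8 and 24.8 CPM in KO and had no read in AML, at least 653-fold lower on the same floor. The other genes with at least 3 members that fell most were Col5a1 (-3.99 on the log2 scale), Pde4b (-3.02), Nfia (-2.94), Immp2l (-2.53), Adk (-2.33), 1110051M20Rik (-2.29) and Pde4d (-2.08). Pde4b and Pde4d are phosphodiesterases that break down cyclic AMP. In Adk, where the member named above dropped to 11.9%, RNA was at 228, 229 and 220 CPM in KO and at 44.8, 44.7 and 45.4 in AML.

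Those that rose most by the same rule held 3 to 10 members each. Zfhx4, a zinc-finger homeobox gene, was at 0.211, 0.0761 and 0 CPM in KO and at 30.1, 28.0 and 28.7 in AML. Map3k9, a kinase upstream of JNK, rose by 7.46 ± 0.23 and Naaa, a lysosomal amidase, by 5.15 ± 0.12. Sun2, a protein of the inner nuclear membrane, went from 26.1, 22.6 and 24.5 CPM to 733, 772 and 743, and its top member at chr15:79734245-79735189 from 61.2% to 31.6%. Ly75, an endocytic receptor of dendritic cells, rose by 4.87, Kcnh7, a potassium channel, by 4.72, Rnf144b by 4.51 and Celsr1 by 4.32. The genes named as rising and falling most were picked by their RNA change, so finding both directions among them was fixed by the choice. Of all 462 tested genes with at least 3 members, 219 (47.4%) were higher in AML than in KO and 156 (33.8%) lower. Among all genes tested, 42.8% were higher and 39.5% lower, so calls in both directions were not particular to genes with members.

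Of the 333 blood, leukemia and chromatin genes placed from 15 lists, 83 held a member, or 24.9%, against 22.6% of all protein-coding genes found in the count table, a share close to the background. Among granulocyte genes it was 7 of 23: Ngp, Camp and Cxcr2, the receptor for neutrophil chemokines, rose (2.944, 1.807 and 2.101), and S100a8 did by the call described above, while Mpo (-1.99) and the granule protease gene Prtn3 (-1.60) fell, and Ltb4r1 did not pass (-0.03, adjusted p = 0.718), but did, lower, in a fit to the AML and KO libraries alone (-0.14, adjusted p = 0.0175). Over the whole list 17 of 23 rose and 5 fell. Mpo carries 2 members and was at 24099 to 26050 CPM in KO and 6158 to 6413 in AML, so its lower methylation stood beside lower RNA.

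Dendritic cell genes with a member, 6 of 19, rose in 5 cases. Ciita, the master regulator of MHC class II, rose by 7.20 ± 0.26, Batf3 by 5.73 ± 0.35 and Cd74, the MHC class II invariant chain, by 5.22 ± 0.09, with 1 member each. Runx2 and Zbtb46 rose by 1.26 and 0.45, and Tcf4 fell (-0.40). In the whole list 16 of 19 rose and 3 fell.

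Erythroid genes with a member were 6 of 26, with 3 higher (Hbb-bt, Bcl11a and Slc4a1) and 3 lower (Epb42, Ank1 and Lmo2), while 20 of the whole 26 fell. The Lmo2 call (-0.15) was lost without AML replicate 1 or 3 or KO replicate 1 or 3 (adjusted p 0.0761 to 0.132) and without the filter on low counts (0.124), and that of Slc4a1 without KO replicate 1 (0.0504). Ank1, an ankyrin of the red cell skeleton, held 5 members and fell by 1.28 on the log2 scale. Megakaryocyte genes held members in 8 of 20, with Selp, Itgb3 and Runx1 higher, Rab27b, Cd9 and Vwf lower and Fli1 and Plek not passing. Plek passed, higher, with DESeq2, without the filter on low counts and in a fit to the AML and KO libraries alone (adjusted p = 0.0487, 0.000256 and 0.00292). The Runx1 call (0.18) was lost without AML replicate 1 or 2 or KO replicate 2 (adjusted p 0.0795 to 0.122), with DESeq2 (0.0595) and in the fit to AML and KO alone (0.198). All 3 mast cell and basophil genes with a member fell, Cd200r3, with 5 members, by 3.12, Il1rl1 by 2.32 and Mcpt8 by 0.98; the whole list had 11 lower and 4 higher of 17 tested. Monocyte genes with a member, 4 of 22, had Msr1 and Vcam1 higher, Fcgr3 lower and Adgre1 not passing, though it passed, lower, in the fit to AML and KO alone (adjusted p = 0.0449).

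Stem and progenitor genes held members in 6 of 26. Erg, an ETS factor of stem cells, rose from 11.5 to 111 CPM on average (3.27 ± 0.08, adjusted p = 5.80e-17), and Eng and Angpt1 rose by 0.68 and 0.59. Hlf, Mecom and Tek, a receptor with 6 members, did not pass. B cell genes held members in 5 of 20, led by Ebf1 with 7, which did not pass but did without AML replicate 3 or KO replicate 2 (adjusted p 0.0393 and 0.0492). Pax5 was the one called, higher, at a low level in both groups. T and NK cell genes held members in 8 of 26, with Tcf7 and Cd4 among those higher and Nkg7 and Lef1 lower, the last lost without AML replicate 1 or 2 or KO replicate 1 or 2 (adjusted p 0.0531 to 0.0894) or without the filter on low counts (0.0606). Among homeobox genes, Hoxb3 held 6 members, Meis2 5, and Hoxb9 and Pbx3 1 each. Pbx3, a Hox cofactor, rose by 0.41 ± 0.07, and Hoxb3, Hoxb9 and Meis2 had too few reads to be tested. In the stroma list 6 of 17 genes held a member; of the 3 tested, Pdgfrb and Pecam1 rose and Vwf fell.

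Leukemia genes held members in 10 of 29 cases. Cdk6, a cell cycle kinase, held 4 and rose by 0.42, Nf1, a RAS inhibitor, 3 and 2.26, Cbl 1 and 3.26, Ikzf1 1 and 1.96, Etv6 2 and 1.72, while Bcl2 and Mecom did not pass, and Erg, Runx1 and Lmo2 are given above. Over the whole list 17 of 28 tested rose and 5 fell. Cytokine receptor genes held members in 7 of 36: Il18r1 (4.13), Il6ra (3.53), Il1r1 (3.08), Tgfbr2 (1.40) and Tnfrsf1a (0.84) rose, Il21r fell (-0.72) and Jak1 did not pass.

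Of 19 genes of the methylation machinery, 3 (15.8%) held a member, 1 each in Dnmt1, Mbd1 and Idh1. RNA of the 3 active methyltransferases was higher in AML, the sample with less methylation in these regions. Dnmt1 was at 132, 148 and 113 CPM in KO and at 449, 474 and 462 in AML (log2 fold change 1.81 ± 0.11 SE, adjusted p = 1.06e-09). Dnmt3a rose by 1.96 ± 0.11, Dnmt3b by 1.46 ± 0.08 and Uhrf1, the partner that guides DNMT1 to newly replicated DNA, by 1.47 ± 0.25. Of the enzymes that oxidise methylcytosine, Tet2 rose by 1.31 ± 0.08 and Tet3 by 2.198 ± 0.09, and Tet1 did not pass (0.26 ± 0.12, adjusted p = 0.0543), though it did without KO replicate 1 (0.36, adjusted p = 0.0195). Of 20 genes of H3K36 methylation, 4 held 1 member each: Nsd3, Kdm2b and Kdm4b rose and Psip1, a reader of the mark, fell.

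Members met 5 microRNA hairpins. At Mir125a, whose product is known from blood stem cells, the member at chr17:17830806-17831120 went from 71.3% to 45.7%; the seed is in capitals in the mature strand.
mmu-miR-125a-5p: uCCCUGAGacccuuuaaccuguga
At Mir344h-1 the member went from 73.6% to 5.18% over 4 sites, the largest drop of the 5, and Mir6350, Mir6949 and a further hairpin, Mir6336, were also met. No small RNA was measured here.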

How the data were processed

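The members and gene lists were chosen with earlier results of these data known. The submitters' processing notes name Bismark 0.19.0, Bowtie2 2.2.9, MACS2 2.1.1.20160309, HISAT2 2.0.5 and HTSeq 0.9.1, without their roles, and the mm10 build. No source used here names the tool that called the methylated regions. Per the file headers, the deposited region tables give each side's mean methylation as a fraction, the number of CpG sites, the length and a summed score, with 1 library a side and no coverage, so depth is unknown and no test was made. Which side is which was taken from the order of names in each table and checked on 2236 identical regions that the NHD13 against KO and the KO against AML tables share, where the KO levels differed by a median of 0.00087 percentage points. The deposited peak lists give the authors' fold enrichment, a ratio that was not used further, and a −log10 q-value, used to filter peaks.

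The authors' deposited raw counts hold 53946 genes in 12 libraries. They were tested with edgeR 4.0.16 (R 4.3.3; TMM scaling, filterByExpr, quasi-likelihood fit with 1 mean per group over all 12 libraries, 8 residual degrees of freedom), which left 16233 genes, and with DESeq2 1.42.0 as an alternative. The scaled median of all genes differed by 0.07 on the log2 scale between AML and KO. The script was tested on simulated data. CPM use the TMM-scaled library size. Regions were intersected with gene spans and promoter windows of RefSeq (GRCm38.p6, matched by symbol: 33979 genes placed and found once in the count table) in Python 3 with pandas, where 1 shared base counted as meeting. Shares carry 95% Wilson intervals, which cover counting error only.

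Named regions are the 10 with the largest summed score, the 5 longest and the 5 with the largest loss among those with at least 10 sites. Named genes are the 10 with most members, the 10 with most members per 100 kb among those with at least 5, the 8 with the largest rise and the 8 with the largest fall among genes that hold 3 or more members, pass at 0.05, reach a mean of 10 CPM in either group and do not overlap between libraries, and the list genes with most members, up to 3 a list. Further genes named were chosen after their values were seen. A few list genes that the rule would name are not reported here.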

Additional observations from a re-analysis of the deposited data

How the results depend on the processing

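Without members of 4 sites 35425 of the 53740 remained, and 25727 at 0.025 sites per base. That last limit was chosen after seeing the data because a CpG as a rule counts as 2 sites. The other limits on loss and density gave 37112 to 60074. Limiting peaks to a −log10 q of at least 5 gave 1.23% of members in NHD13 AML peaks and 0.0726% in KO AML peaks, and asking for 50% of the region to be covered gave 1.34% for the NHD13 AML peaks. With 50% of the member covered, 5.60% instead of 7.72% met any region of NHD13 against WT and 4.93% instead of 6.58% one of KO against NHD13. Gene spans widened by 5 kb on each side met 47.6%. RNA counts for genes with a member went from 1300 higher and 726 lower to 219 and 156 for genes with at least 3 members. At an absolute log2 fold change of at least 1 they were 940 higher and 465 lower. Leaving out 1 library at a time gave 1280 to 1313 higher and 708 to 718 lower. DESeq2, no filter, and the AML and KO libraries alone gave 1263 to 1367 and 695 to 807. Of 1087 RNA fold changes recomputed for 109 genes the text names, 1055 kept their side of the threshold, 23 lost and 9 gained the call and 0 reversed. With the replicate number as a replicate block the counts were 1290 and 720; same-numbered AML and KO libraries correlated at -0.011, 0.086 and -0.012, so the numbers do not pair the samples, and of the named genes the block ended the call of S100a8 (adjusted p = 0.0568). The 1 library behind each methylation side is the main limit.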
